A study of Mus musculus with 20 samples.

Results

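Whether loss of p53 had a different effect on mRNA levels in dysplastic and in non-dysplastic mouse gastric organoids was examined gene by gene. All 8 organoid lines of the series entered this comparison, with 20 libraries of RNA-seq counts, and 13476 of 24047 genes had enough counts to be tested. For each gene the log2 fold change of knockout (KO) over wild-type (WT) lines, called the KO effect here, was computed in each class, and the value in the non-dysplastic class was subtracted from that in the dysplastic class. A positive difference therefore means a KO effect that is more positive in dysplastic lines.

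Gastric organoids are cultured balls of stomach epithelium that keep dividing in a gel, and all lines were of strain BL/6, grown in the same conditioned medium. The non-dysplastic class held WT lines 300 and 1269 and p53 KO lines 650, made in vivo, and 1270, made ex vivo, each with 2 libraries. The dysplastic class held WT lines 565 and 752 and p53 KO lines 794 and 801, both made in vivo, each with 3 libraries. The series asked how mRNA levels differ with and without p53. The labels do not state how the KO was made, what drove it, how dysplasia was scored, the age of the mice, or whether lines came from separate animals, so the spread between lines may be partly technical. With 2 lines for each combination of genotype and class, and with the only ex vivo KO in the non-dysplastic class, the mode of KO cannot be told apart from the other features of line 1270.

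The p53 protein is a transcription factor that is stabilised after DNA damage and other stress and switches on genes for cell-cycle arrest, apoptosis and repair. Gastric dysplasia is a precancerous change in which the epithelium loses its normal architecture and cytology. An interaction of the kind examined here asks whether the same genetic loss is followed by the same expression change in both settings.

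Summed counts per line ran from 22217126 in line 300 to 36880593 in line 752. Gastric epithelial genes were abundant in every line, with a mean log2(CPM + 1) over 16 markers of 7.39 to 8.69 (CPM is the read count scaled to a common library total). Ddx3y, a Y-linked gene, read 44.8 CPM in line 300 and 23.6 CPM in line 650 and at most 0.0795 CPM in the other 6 lines, while Xist, transcribed from the inactive X chromosome of females, read 317 to 668 CPM in those 6 and at most 0.651 CPM in lines 300 and 650. Both male lines were thus non-dysplastic, and all dysplastic lines were female. In 6 libraries, 1 from each of lines 300, 650, 565, 752, 794 and 801, the deviation from the other libraries of the line fell with transcript length (Spearman rho across 10425 genes from -0.66 to -0.49, against -0.11 to 0.66 in the other 14). The part of sex in the differences below was not tested. For the 6 libraries, the fits were repeated without them and with a term for them.

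No gene's KO effect differed between the classes at an adjusted p under 0.05 in edgeR's quasi-likelihood test (0 of 13476 genes, 0%), and the smallest adjusted p was 0.9998. At an unadjusted p under 0.05 there were 241 genes (1.79%), 160 with a positive and 81 with a negative difference. With no difference in any gene, a share of about 0.05 would pass, so 1.79% is below that level. DESeq2 and limma-voom likewise called 0 genes for the difference, with 432 of 18180 and 635 of 12670 genes at an unadjusted p under 0.05. Neither was clearly above that level. Unadjusted p is used below only to order and choose genes. Within a class, edgeR also called 0 genes in dysplastic lines (0%) and 0 in non-dysplastic lines (0%), where 588 and 257 genes had an unadjusted p under 0.05. DESeq2 on line sums called 80 genes in dysplastic lines (0.604% of genes) and 0 in non-dysplastic lines (0%), and limma-voom on the 20 libraries with lines as correlated blocks called 101 (0.797%) and 5 (0.0395%). A call in one class and none in the other is not a test of the difference between them, and that test called nothing in any of these tools. What follows is therefore a description of these 8 lines, gene by gene and group by group.

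Across all 13476 genes the KO effects of the 2 classes had a Pearson r of 0.24 and a Spearman rho of 0.01, over points that share their libraries and scaling. KO and WT lines did not overlap for 37.0% of genes in the dysplastic class and for 20.1% in the non-dysplastic class. With 2 lines against 2, lines of like level often fail to overlap by their order alone. These shares are therefore not shares of genes with a KO effect. Among genes without overlap in both classes, 703 had KO effects in the same direction (66.3%) and 357 in opposite directions (33.7%). To describe genes by pattern, a KO effect was counted as present on 2 conditions. Both KO lines lay on the same side of both WT lines, and the log2 fold change was at least 1 in size. It was counted as absent where the log2 fold change was at most 0.5 in size, whatever its standard error and any lack of overlap. Absent thus means a small estimate and not a KO effect shown to be missing. By this rule, which is no test, 23 genes had opposite KO effects in the 2 classes (0.171%), 395 had one in dysplastic lines only (2.93%), 118 in non-dysplastic lines only (0.876%), and 154 had KO effects in the same direction in both (1.14%).

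**Figure D1:**
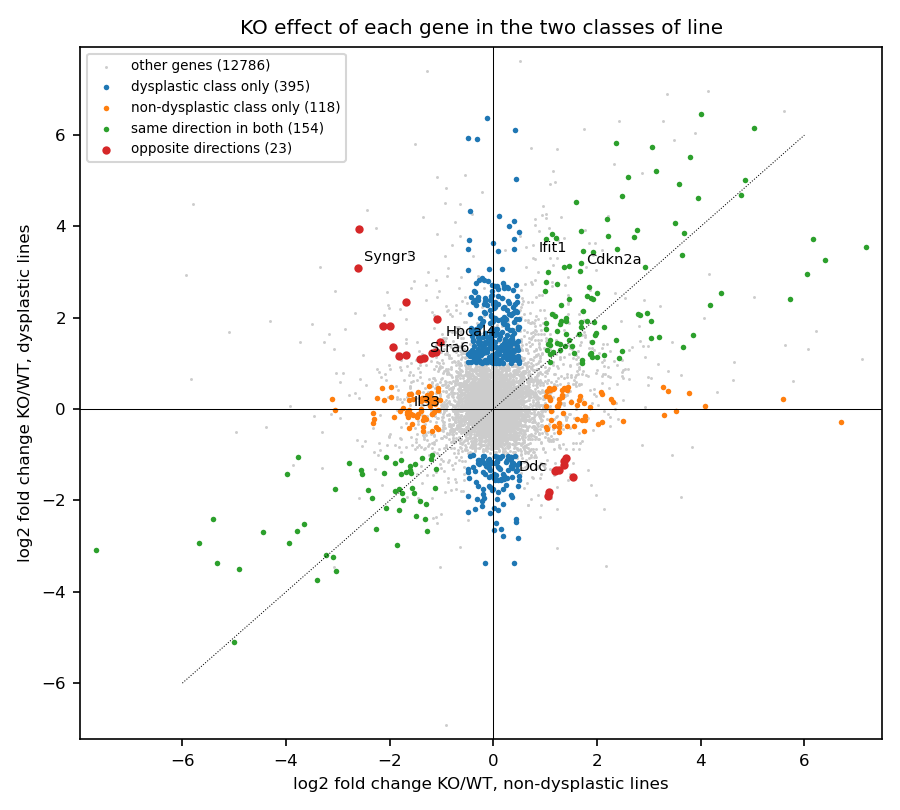
Log2 fold change of KO over WT in non-dysplastic lines (x axis) and in dysplastic lines (y axis) for 13476 genes, each point 1 gene, coloured by pattern, with the dotted line marking equal effects. The 395 genes of the dysplastic pattern form a vertical band of which 285 lie above zero, the 118 of the non-dysplastic pattern form a horizontal band, and the 23 with opposite effects lie in the upper left and lower right.

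Cdkn2a, which encodes the cell-cycle inhibitor p16 and the Mdm2 antagonist p19Arf, read 17.8 and 20.8 CPM in non-dysplastic WT, 64.2 and 58.8 CPM in non-dysplastic KO, 28.4 and 21.8 CPM in dysplastic WT and 285 and 126 CPM in dysplastic KO lines. It was higher in all KO lines, by 1.67 ± 0.37 (SE) in non-dysplastic and by 3.03 ± 0.39 in dysplastic lines on the log2 scale. The difference of 1.36 ± 0.52 did not pass (edgeR adjusted p = 0.9998), although both dysplastic KO lines lay above both non-dysplastic KO lines. DESeq2 and limma-voom called its dysplastic KO effect (adjusted p = 1.2e-10 and 0.00055).

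Of 48 tested p53 targets, genes reported to be switched on by p53, 41 had a negative KO effect in non-dysplastic lines and 36 in dysplastic lines. The median KO effect was -0.80 in the former and -0.43 in the latter, beside -0.02 and 0.01 over all genes. None of the 48 had opposite effects or an effect in dysplastic lines only, 1 had one in non-dysplastic lines only, and 11 had alike effects in both. The differences were positive for 34 of the 48, with a median of 0.29, beside 55.4% positive and a median of 0.04 over all genes. The list's median difference ran from -0.05 without line 1269 to 0.49 without line 300, and in 40 of the 48 genes line 1269 lay above line 300.

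Ccng1, which encodes cyclin G1, read 429 and 936 CPM in non-dysplastic WT and 241 and 81.5 CPM in KO lines, and 555 and 426 CPM in dysplastic WT and 88.5 and 131 CPM in KO lines. Its KO effects of -2.08 ± 0.59 and -2.16 ± 0.59 were nearly the same size. Eda2r, a receptor of the tumour necrosis factor receptor family, read 33.4 and 104 CPM against 16.9 and 0.162 CPM in the non-dysplastic class and 54.8 and 40.9 CPM against 0.490 and 7.73 CPM in the dysplastic class. In both classes the WT and KO lines did not overlap, while the KO lines differed among themselves by far more than the WT lines did. Gdf15, a stress-induced cytokine, was lower in the KO lines of both classes, with KO effects of -3.06 ± 1.01 and -1.76 ± 0.96. These 3 genes were chosen after their values were seen.

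Dyrk3, a kinase involved in dissolving stress granules, was the only p53 target on the list with the non-dysplastic pattern. It read 19.9 and 34.4 CPM in non-dysplastic WT against 12.4 and 9.55 CPM in KO lines, and 27.2 and 17.8 CPM in dysplastic WT against 18.2 and 20.3 CPM in KO lines. The KO effect was -1.31 ± 0.33 and -0.23 ± 0.33, a difference of 1.08 ± 0.47. The other list members with the smallest unadjusted p of the difference were Plk3, a polo-like kinase, with KO effects of -0.35 ± 0.43 and 0.60 ± 0.43, and Ckap2, a spindle protein, with -1.02 ± 0.48 and -0.03 ± 0.47. Ckap2 overlapped between KO and WT in both classes, and in dysplastic lines Plk3 was higher in KO line 794 (27.3 CPM) but not in line 801 (10.7 CPM, against 13.7 and 11.4 CPM in WT).

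Opposite KO effects were found in 23 genes, and most of these were expressed at low levels. The average log2 CPM was 2 or less in 21 of the 23 and under 0 in 16, so that each line's value rests on few reads. In 14 genes the KO lines were lower in the non-dysplastic and higher in the dysplastic class, and in 9 the reverse held. Line 794 lay farther from the WT lines than line 801 in 20 of the 23. Just inside the fold limit were Mir429 and Hpcal4, whose smaller KO effects were 1.05 and -1.04, and just outside were Eid3 and Pcdhb14, at -0.98 and 0.96. Leaving out 1 line gave from 34 such genes without line 794 to 230 without line 300, with 9 and 22 of the 23 among them. Non-overlap is easier to meet where 1 line is left in a combination, so larger counts are in part given by the rule. Leaving out the 6 libraries with the length shift gave 39, of which 15 were among the 23. Without the libraries numbered 1 there were 13, of which 2 were among the 23, and without those numbered 2 there were 43, of which 8 were.

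Stra6, the membrane receptor that takes up retinol from its carrier protein, had the highest average log2 CPM of the 23. It read 65.9 and 129 CPM in non-dysplastic WT lines 300 and 1269 and 33.0 and 43.6 CPM in KO lines 650 and 1270. In dysplastic lines it read 164 and 86.8 CPM in WT lines 565 and 752 and 325 and 220 CPM in KO lines 794 and 801. Its level was therefore lowest in the non-dysplastic KO lines and highest in the dysplastic KO lines, and the 4 WT lines lay between them. The KO effects were -1.35 ± 0.43 and 1.12 ± 0.43, a difference of 2.47 ± 0.61 (edgeR unadjusted p = 0.0053, adjusted p = 0.9998). The pattern was kept in 14 of 18 alternatives and lost without line 1269, line 752, line 794 or the libraries numbered 1, while the difference stayed positive in all of them.

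Hpcal4, a neuronal calcium sensor, was the other gene of the 23 with an average log2 CPM above 2. It read 9.30 and 17.8 CPM in non-dysplastic WT, 9.02 and 4.21 CPM in KO, 11.0 and 9.43 CPM in dysplastic WT and 42.5 and 14.4 CPM in KO lines. The KO and WT lines of the non-dysplastic class were separated by the small step between 9.30 CPM in line 300 and 9.02 CPM in line 650. The KO effects were -1.04 ± 0.61 and 1.47 ± 0.60.

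Among the low-level genes of the 23, Syngr3, Dcdc2a and Dkkl1 were chosen after their values were seen. Syngr3, a synaptic vesicle protein, had the smallest unadjusted p of the difference among all genes (0.0016), at 0.382 and 0.358 CPM in non-dysplastic WT, 0.0867 and 0.0324 CPM in KO, 0.174 and 0.0823 CPM in dysplastic WT and 1.53 and 0.718 CPM in KO lines. Its lowest values correspond to only a few reads per line. Its pattern was the same in the 17 alternatives in which it could be fitted, and limma-voom called its KO effect in dysplastic lines (3.12 ± 0.73, adjusted p = 0.049) and DESeq2 did not (3.14 ± 1.07, adjusted p = 0.21). Dcdc2a, a doublecortin-domain protein of cilia, went from 0.954 and 1.63 CPM to 0.477 and 0.324 CPM in the non-dysplastic class and from 1.05 and 0.795 CPM to 1.90 and 2.28 CPM in the dysplastic class. Dkkl1, a secreted protein related to the Dickkopf Wnt inhibitors, had KO effects of -1.10 ± 0.45 and 1.25 ± 0.45. In the other direction Shh, the hedgehog ligand made by gastric epithelium, read 2.10 and 0.199 CPM in non-dysplastic WT against 2.26 and 2.95 CPM in KO, and 0.726 and 1.32 CPM in dysplastic WT against 0.115 and 0.685 CPM in KO lines. Its WT lines 300 and 1269 differed about as much as any of the groups, and its difference of -2.55 ± 1.60 was not called.

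**Figure D2:**
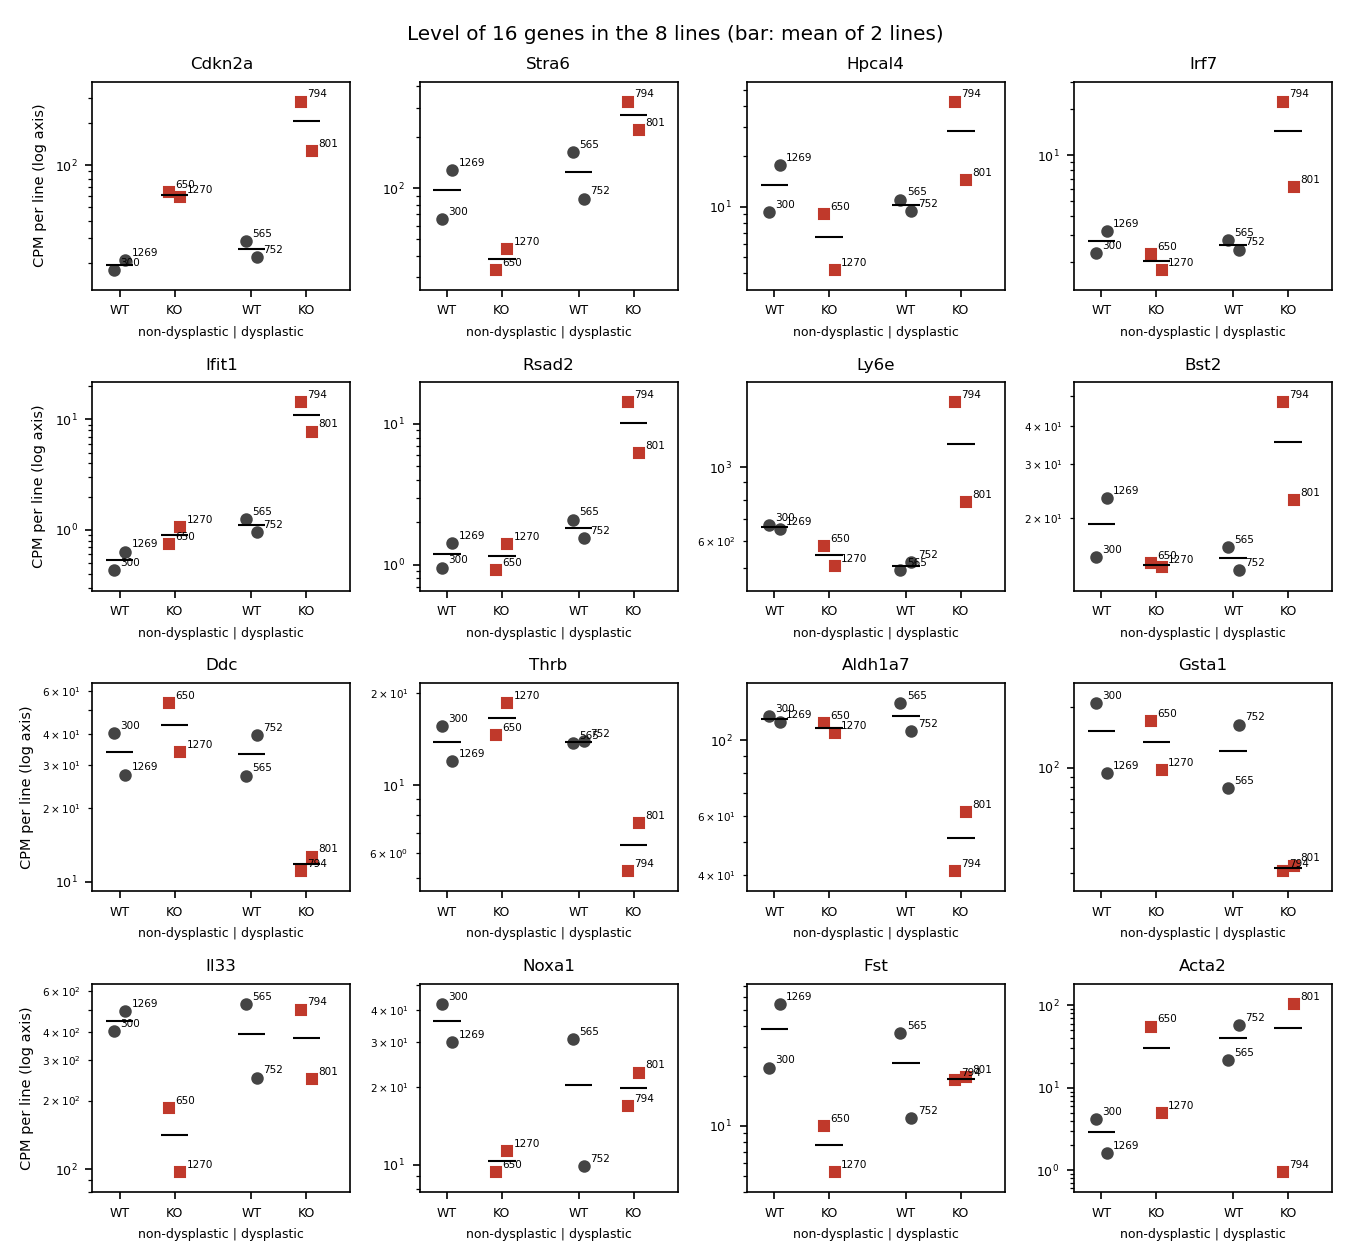
TMM-scaled CPM of 16 named genes in the 8 lines, on log axes whose range differs between panels, with grey circles for WT, red squares for KO and a bar at the mean of each pair of lines. Stra6 is lowest in KO lines 650 and 1270 and highest in KO lines 794 and 801, Ifit1 is at 7.76 CPM or more in lines 794 and 801 only, and Acta2 ranges from 0.951 to 104 CPM within the dysplastic KO pair.

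The pattern with the most genes was a KO effect in dysplastic lines only. Of its 395 genes, 285 were higher (2.11% of genes) and 110 lower (0.816%) in the dysplastic KO lines. An average log2 CPM above 2 was reached by 138 of the 395, of which 83 were higher and 55 lower. Line 794 was the more extreme KO line in 84.9% of the higher and 85.5% of the lower genes. Without line 794 the pattern held 385 genes, of which 203 were among the 395, and without line 801 it held 1116, of which 369 were. Markers of fibroblasts were also higher in lines 794 and 801, at a summed 15.1 and 14.6 CPM against 8.25 and 5.98 CPM in the dysplastic WT lines. All 7 tested fibroblast genes had a positive KO effect in dysplastic lines (median 1.14) and in non-dysplastic lines (median 1.68), with no call, and 1 of them, Col6a1, had the dysplastic pattern. The part of such cells in this pattern was not tested. DESeq2 called the dysplastic KO effect of 20 higher and 10 lower genes among the 367 of the pattern that it tested, beside 0.604% of all genes. The pattern had itself selected these genes on that effect.

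Of the gene lists, the interferon response had the most members in this pattern. Type I and type III interferons signal through receptors at the cell surface to genes whose products sense and restrict viruses, in epithelial as in immune cells. Of 43 tested interferon-response genes, 42 had a positive KO effect in dysplastic lines and 28 in non-dysplastic lines. The median KO effect was 1.26 in dysplastic and 0.19 in non-dysplastic lines, and the difference was positive in 42 of 43, with a median of 1.11. By the pattern rule 16 had an effect in dysplastic lines only, all higher, 2 were alike in both, and none was opposite or limited to non-dysplastic lines. In dysplastic lines DESeq2 called 11 of 42 list members and limma-voom 5 of 41, all higher, beside 0.604% and 0.797% of all genes. In non-dysplastic lines each called none, where 0% and 0.0395% of all genes were called. The mean log2(CPM + 1) over the list was 2.54 to 2.82 in the 6 lines other than 794 and 801, where it was 4.12 and 3.46. Line 794 lay above line 801 in 37 of the 43 genes, and the median difference was 0.50 without line 794 and 1.57 without line 801.

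Ifit1, which binds foreign RNA lacking the mammalian cap methylation, had the smallest unadjusted p of the difference on the list. It met the rule for no pattern, since its KO effect of 0.76 in non-dysplastic lines lay between the limits of 0.5 and 1. Both KO lines of that class lay above both WT lines. It read 0.429 and 0.636 CPM in non-dysplastic WT, 0.737 and 1.07 CPM in non-dysplastic KO, 1.25 and 0.960 CPM in dysplastic WT, and 14.3 and 7.76 CPM in dysplastic KO lines. The 6 other lines thus lay at 1.25 CPM or less. Its KO effect was 3.31 ± 0.49 in dysplastic lines, called by DESeq2 (adjusted p = 5.2e-07) and limma-voom (adjusted p = 0.034), and 0.76 ± 0.50 in non-dysplastic lines, a difference of 2.56 ± 0.68 (edgeR unadjusted p = 0.0076).

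Irf7, the transcription factor that amplifies interferon production, read 2.29 and 3.18 CPM against 2.26 and 1.78 CPM in non-dysplastic WT and KO lines, and 2.79 and 2.41 CPM against 22.5 and 6.20 CPM in dysplastic WT and KO lines. Rsad2, which encodes the antiviral enzyme viperin, went from 2.09 and 1.54 CPM to 14.2 and 6.17 CPM in dysplastic lines, while the non-dysplastic lines read 0.911 to 1.43 CPM whatever their genotype. Its pattern was kept in all 18 alternatives. Bst2, or tetherin, which holds budding virus at the cell surface, read 14.9 and 23.2 CPM against 14.2 and 13.8 CPM in non-dysplastic lines and 16 and 13.5 CPM against 47.7 and 22.9 CPM in dysplastic lines. In line 801 Bst2 was no higher than in WT line 1269, and its pattern was lost without line 794, line 300 or the libraries numbered 2. Oas3, which makes an oligoadenylate messenger that activates RNase L, was chosen after its values were seen and reached 15.6 and 2.06 CPM in lines 794 and 801, with 0.286 to 0.697 CPM in the other lines. Ly6e, an interferon-induced surface protein not on the list, read 670 and 652 CPM against 582 and 507 CPM in non-dysplastic lines and 491 and 521 CPM against 1560 and 787 CPM in dysplastic lines. Its KO effect in dysplastic lines was called by DESeq2 (1.22 ± 0.33, adjusted p = 0.04) and limma-voom (1.13 ± 0.22, adjusted p = 0.021).

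Isg15, a ubiquitin-like modifier, and Rtp4, a receptor transporter that is strongly interferon-induced, were the 2 list members with the alike pattern. Isg15 read 0.572 and 0.755 CPM against 2.26 and 0.874 CPM in the non-dysplastic class and 1.71 and 1.18 CPM against 11.8 and 7.67 CPM in the dysplastic class. The KO effects of 1.22 ± 0.57 and 2.75 ± 0.57 differed by 1.53 ± 0.79. Rtp4 had KO effects of 1.36 ± 0.58 and 3.11 ± 0.58. Both were chosen after their values were seen. Isg15 lost the alike pattern in 6 of 18 alternatives, among them the 3 limma-voom fits, and both genes lost it without the 6 libraries with the length shift and without the libraries numbered 2.

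Of markers of other cells, 14 immune-cell genes summed to 33.1 and 22.2 CPM in lines 794 and 801, within the 9.55 to 52.7 CPM of the other 6 lines. The 10 genes of class II antigen presentation, which professional antigen-presenting cells express and interferon gamma induces in epithelium, were highest in the dysplastic KO lines, with sums of 26.4 and 16.2 CPM in lines 794 and 801, and of 2.96 to 7.54 CPM in the other 6. Of these, 4 were tested and had positive KO effects in dysplastic lines, with a median of 1.53, and a median of 0.41 in non-dysplastic lines, and neither DESeq2 nor limma-voom called any. Cd74, the class II invariant chain, chosen after its values were seen, read 11.1 and 11.4 CPM in lines 794 and 801 and 0.525 to 3.98 CPM in the others. The part of antigen-presenting cells in the interferon values was not tested.

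The letters of the interferon-stimulated response element, GAAANNGAAA on either strand (TTTCNNTTTC in reverse), were searched in RefSeq promoters of build GRCm38.p6. The window ran from 250 bases before to 50 after the first listed start. The motif and the promoters printed were chosen after the values were seen. At least 1 match was found in 3.49% of all 27025 promoters and in 2.80% of those of tested genes. Of the 43 interferon genes 31 had a promoter in the table, and 16 of these held a match (51.6%). These genes were listed for their response to interferon, so that share does not rest on the KO lines. Among the genes higher in dysplastic KO lines only, 16 of 201 promoters held one (7.96%), and 9 of 191 (4.71%) once interferon-list members were set aside. Matches were found in 2 of 78 promoters of the genes lower in dysplastic KO lines only (2.56%), in 1 of 83 of the non-dysplastic pattern (1.2%) and in 0 of 15 of the opposite pattern. A match is a description of the letters and not a measurement of binding. The 250 bases before the start are given 5′ to 3′ on the gene's strand for Ifit1 at chr19:34640639-34640888 (plus strand, 2 matches), Rsad2 at chr12:26456453-26456702 (minus strand, 1 match) and Oas3 at chr5:120777660-120777909 (minus strand, 1 match), with matches in capitals.
Ifit1: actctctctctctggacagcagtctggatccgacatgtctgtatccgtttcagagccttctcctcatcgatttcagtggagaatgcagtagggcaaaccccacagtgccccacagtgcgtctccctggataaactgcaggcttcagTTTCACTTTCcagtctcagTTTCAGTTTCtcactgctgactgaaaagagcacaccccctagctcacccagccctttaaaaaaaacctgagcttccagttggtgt
Rsad2: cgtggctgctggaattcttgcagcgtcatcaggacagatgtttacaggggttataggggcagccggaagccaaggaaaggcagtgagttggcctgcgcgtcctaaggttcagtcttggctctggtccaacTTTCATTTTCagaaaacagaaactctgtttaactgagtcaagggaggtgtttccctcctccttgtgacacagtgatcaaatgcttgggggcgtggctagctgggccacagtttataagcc
Oas3: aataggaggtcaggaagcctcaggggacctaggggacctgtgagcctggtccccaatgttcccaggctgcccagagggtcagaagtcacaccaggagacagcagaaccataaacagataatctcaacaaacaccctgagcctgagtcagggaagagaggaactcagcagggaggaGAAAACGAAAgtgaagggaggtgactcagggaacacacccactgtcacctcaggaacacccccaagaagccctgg
The matches nearest the start began 85 bases before it in Ifit1, 120 in Rsad2 and 75 in Oas3. Irf7 had no match in the 250 bases before its start.

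Class I antigen presentation genes, several of which are interferon-induced, followed with smaller values. Their difference was positive in 18 of 20, with a median of 0.36, and 2 had the dysplastic pattern. That median became 0.17, 0.18 and 0.24 when line 300, line 1270 or line 794 was left out, and 0.61 when line 650 was. The summed level of 23 class I genes was 5480 CPM in line 794 but 4440 CPM in line 801, below the 4860 and 4740 CPM of the dysplastic WT lines. H2-Q4, a class Ib molecule with near-identical paralogs that make its counts uncertain, read 9.54 and 9.02 CPM against 11.6 and 8.87 CPM in non-dysplastic lines and 11.1 and 12.6 CPM against 30.0 and 18.9 CPM in dysplastic lines. Tap2, a subunit of the peptide transporter, had KO effects of -0.38 ± 0.22 and 0.26 ± 0.22. Nlrc5, the transactivator of class I genes, had the list's largest difference, 4.04 ± 1.45, at 1.15 CPM or less in every line and from a few reads in some. Tap1, the partner of Tap2, was chosen after its values were seen and had the non-dysplastic pattern, with 10.6 and 30.0 CPM in WT against 7.85 and 8.68 CPM in KO lines there and 15.2 and 13.1 CPM against 21.7 and 10.4 CPM in the dysplastic class.

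Other genes higher in dysplastic KO lines only had varied roles. Sox7, an endoderm and endothelial transcription factor, read 1.24 and 1.19 CPM against 1.39 and 0.486 CPM in non-dysplastic lines and 2.5 and 3.10 CPM against 19.4 and 8.97 CPM in dysplastic lines. DESeq2 (2.35 ± 0.58, adjusted p = 0.016) and limma-voom (2.25 ± 0.43, adjusted p = 0.02) called its dysplastic KO effect. The summed level of 8 endothelial markers was 4.96 CPM in line 794, 2.02 CPM in line 801 and 1.48 to 8.39 CPM in the others. Insm1, a transcription factor of endocrine cells, read 1.88 to 3.38 CPM in non-dysplastic lines, 4.24 and 1.84 CPM in dysplastic WT and 10.3 and 8.19 CPM in dysplastic KO lines. Tnfrsf19, a Wnt-responsive receptor of chief and stem cells, and Ier3, an immediate early gene, rested mainly on line 794, where they read 119 and 354 CPM against 24.0 and 134 CPM in line 801. Dll1, a Notch ligand, read 10 and 6.59 CPM in dysplastic KO lines against 2.53 and 5.54 CPM in WT. The chemokine Cxcl10, chosen after its values were seen, read 7.99 and 5.81 CPM in dysplastic KO lines and 0.477 to 2.86 CPM in the others.

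Genes lower in dysplastic KO lines only were led by Ddc, the decarboxylase that makes serotonin and dopamine. It read 40.3 and 27.3 CPM against 53.4 and 33.6 CPM in non-dysplastic WT and KO lines and 27.1 and 39.5 CPM against 11.0 and 12.7 CPM in dysplastic lines. The 6 other lines lay between 27.1 and 53.4 CPM, with no overlap with lines 794 and 801. The KO effects were 0.36 ± 0.31 and -1.49 ± 0.32, a difference of -1.85 ± 0.45 (edgeR unadjusted p = 0.0047, adjusted p = 0.9998), and DESeq2 called the dysplastic one (adjusted p = 0.011) while limma-voom did not (adjusted p = 0.078). Thrb, a thyroid hormone receptor, read 12.0 to 18.5 CPM in the 6 other lines and 5.25 and 7.50 CPM in lines 794 and 801. Fa2h, which hydroxylates sphingolipid fatty acids, read 16.9 to 28.1 CPM in the 6 and 9.98 and 10 CPM in lines 794 and 801. Bhlha15, the chief-cell factor Mist1, and Il18, a cytokine of epithelial cells, were lowest in line 794, at 3.37 and 11.2 CPM, with 13.4 and 38.4 CPM in line 801. Krt4, a keratin of squamous epithelium, had an effect that came from line 794 (6.86 CPM) more than from line 801 (96.8 CPM, against 107 and 129 CPM in WT).

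A second block of the lower genes belonged to glutathione and xenobiotic metabolism. Nfe2l2 encodes NRF2, a transcription factor that Keap1 holds in check and that switches on glutathione transferases, quinone reductases and aldehyde-clearing enzymes. Of 37 tested genes of this list, 32 had a negative KO effect in dysplastic lines and 23 in non-dysplastic lines, with medians of -0.57 and -0.09. The difference was negative in 27 and positive in 10, with a median of -0.29, and it stayed negative in all 18 alternatives, between -0.56 and -0.24. By the pattern rule 11 had a KO effect in dysplastic lines only, all lower, and Ephx1, which is also on the p53 target list, was lower in both classes. In dysplastic lines DESeq2 called 6 of 37 and limma-voom 5 of 37, all lower, beside 0.604% and 0.797% of all genes. Neither called one in non-dysplastic lines, where 0% and 0.0395% of all genes were called. Line 801 lay below both dysplastic WT lines in all 37 genes and line 794 in 25.

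Nfe2l2 itself, chosen after its values were seen, read 1160 and 1290 CPM against 902 and 972 CPM in non-dysplastic lines and 1260 and 1270 CPM against 566 and 700 CPM in dysplastic lines. KO lines were below WT lines in both classes, with KO effects of -0.39 ± 0.18 and -1.0 ± 0.18, the second called by DESeq2 (adjusted p = 0.00015) and limma-voom (adjusted p = 0.035). Its place in the dysplastic pattern was lost with another scaling of the counts, since its effect lay at the fold limit. Aldh1a1, an aldehyde dehydrogenase that makes retinoic acid, read 202 and 296 CPM against 208 and 261 CPM in non-dysplastic lines and 212 and 193 CPM against 68.0 and 108 CPM in dysplastic lines. Aldh1a7, a close relative not on the list, whose reads may be shared with Aldh1a1, read 105 to 129 CPM in the 6 other lines and 41.1 and 61.6 CPM in lines 794 and 801.

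The glutathione transferase Gsta1, which has near-identical copies, read 210 and 94.2 CPM against 170 and 97.6 CPM in non-dysplastic lines and 79.3 and 164 CPM against 30.6 and 32.7 CPM in dysplastic lines. Lines 794 and 801 were close together while the other lines spread more than 2-fold. Ugt1a6a, a glucuronosyltransferase, read 37.4 to 48.9 CPM in non-dysplastic lines, 30.1 and 49.6 CPM in dysplastic WT and 16.6 and 21.9 CPM in dysplastic KO lines. Gstm3 and Nqo1, chosen after their values were seen, read 16.9 and 18.8 CPM and 242 and 121 CPM in lines 794 and 801. In WT line 1269 they read 23.8 and 259 CPM, against 219 and 674 CPM in WT line 300, so the non-dysplastic WT pair spanned much of the range. Hmox1 and Slc7a11, 2 further NRF2 targets, had positive differences of 1.44 and 1.03.

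**Figure D3:**
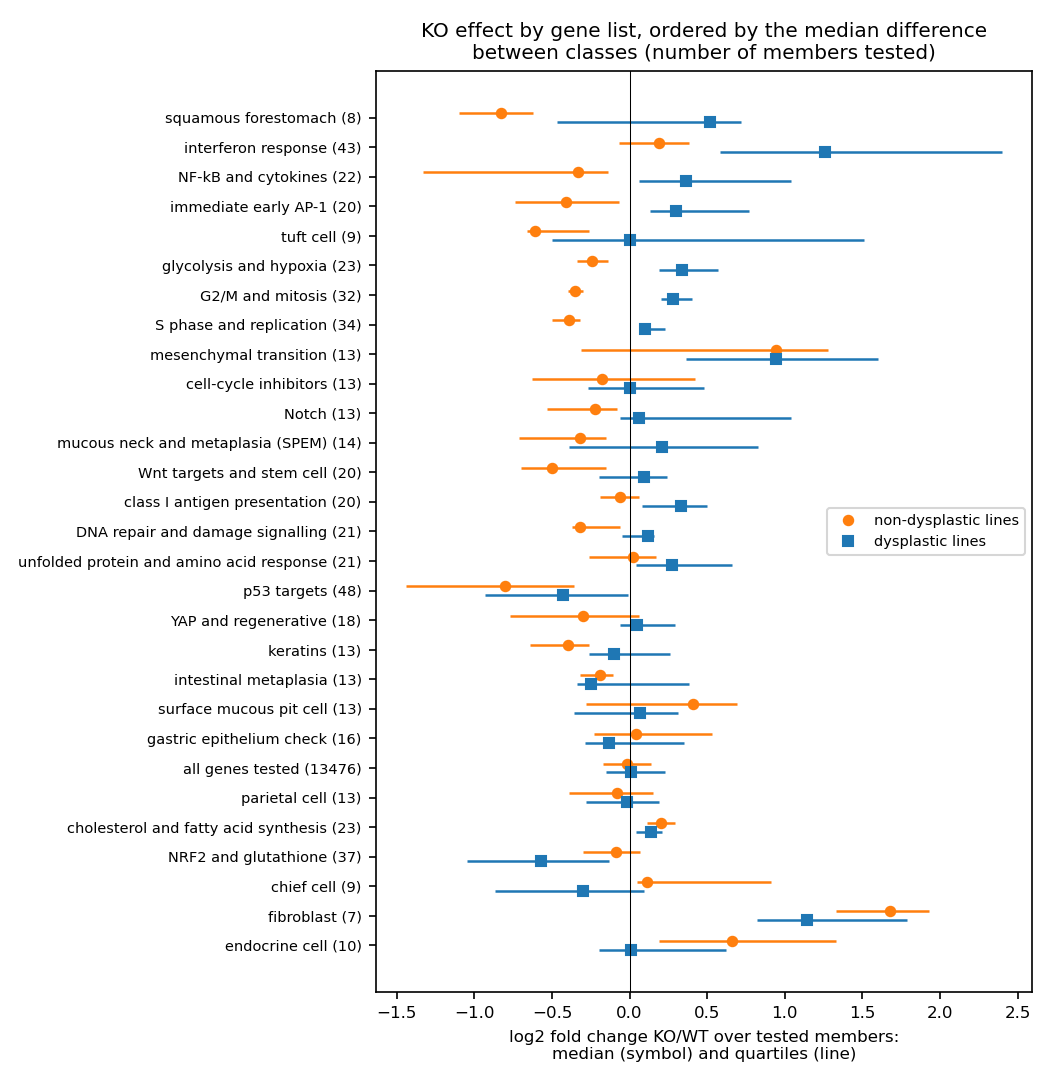
Median (symbol) and quartiles (line) of the log2 fold change of KO over WT for tested members of each gene list with 7 or more, in non-dysplastic (orange circles) and dysplastic lines (blue squares), with lists ordered by their median difference between classes. Interferon genes lie at medians of 0.19 and 1.26, p53 targets are below zero in both classes, at -0.80 and -0.43, and the NRF2 list lies at -0.09 and -0.57.

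A KO effect in non-dysplastic lines only was found in 118 genes, 59 higher and 59 lower in the KO lines, of which 34 had an average log2 CPM above 2. Without line 300 there were 665 and without line 650 there were 537, of which 104 and 93 were among the 118. Without line 794 or 801 there were 140 and 108, of which only 56 and 60 were among them. Noxa1, an activator of epithelial NADPH oxidase, read 42.4 and 30.1 CPM in non-dysplastic WT against 9.37 and 11.3 CPM in KO lines, while dysplastic WT lines read 30.9 and 9.90 CPM and KO lines 16.9 and 22.9 CPM. The dysplastic WT lines differed more from each other than from the KO lines, so an absent effect there was an average over unlike lines. Slc25a48, a mitochondrial carrier, read 13.1 and 21.7 CPM against 8.67 and 6.54 CPM in the non-dysplastic class and 16 and 8.91 CPM against 15.1 and 13.0 CPM in the dysplastic class. P2ry2, a receptor for extracellular ATP, had KO effects of -1.07 ± 0.45 and 0.47 ± 0.44.

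Il33, an alarmin stored in epithelial nuclei, belonged to 2 lists, the YAP and regenerative genes and the cytokines, and had this pattern. It read 403 and 492 CPM in non-dysplastic WT against 186 and 97.5 CPM in KO lines, and 529 and 252 CPM in dysplastic WT against 500 and 248 CPM in KO lines. The KO effects were -1.66 ± 0.51 and -0.06 ± 0.49, a difference of 1.60 ± 0.70. Ereg, an EGF receptor ligand, read 11.1 and 54.2 CPM against 9.32 and 5.44 CPM and then 23.4 and 14.8 CPM against 44.1 and 8.55 CPM, so that line 300 was close to KO line 650. Fst, which binds and blocks activin, was chosen after its values were seen and had KO effects of -2.33 ± 0.67 and -0.31 ± 0.63.

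Of the genes higher in non-dysplastic KO lines only, Epb4.1l4a, a cytoskeletal adaptor, read 3.77 and 5.37 CPM against 7.85 and 16.3 CPM, and Map2, a microtubule-binding protein, 3.20 and 4.17 CPM against 10.3 and 8.09 CPM. In dysplastic lines their WT values of 7.26 and 9.73 CPM and of 4.44 and 12.7 CPM reached the range of the KO lines. Marcksl1-ps4 is a pseudogene whose reads cannot be told apart from those of its parent gene, and it read 9.02 and 5.4 CPM against 9.19 and 20.4 CPM. Tnc, the matrix protein tenascin C, and Acta2, smooth muscle actin (chosen after its values were seen), differed from line to line within groups. Acta2 read 4.2 and 1.63 CPM against 55.4 and 4.95 CPM in the non-dysplastic class and 21.6 and 58.2 CPM against 0.951 and 104 CPM in the dysplastic class. Tnc read 25.4 CPM in line 650 and 3.82 CPM in line 1270, and 1.18 CPM in line 794 and 32.9 CPM in line 801. The 7 smooth muscle markers, Acta2 among them, summed to 119, 117 and 218 CPM in lines 650, 752 and 801, to 34.9 CPM in line 565 and to 2.80 to 9.78 CPM in the other 4. The 12 fibroblast markers summed to 37.7 CPM in line 650, to 15.1 and 14.6 CPM in dysplastic KO lines 794 and 801 and to 5.98 to 8.25 CPM in the other 5. The part of such cells in these values was not tested, and fewer cells of a type cannot be told apart from less RNA per cell.

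Proliferation genes had differences of uniform sign and small size. A positive difference was found in all 32 genes of mitosis and in all 34 of S phase and replication, with medians of 0.59 and 0.55. In non-dysplastic lines the KO effect was negative in all 66, with medians of -0.35 and -0.39, and in dysplastic lines it was positive in 31 of 32 and 28 of 34, with medians of 0.28 and 0.10. None met the rule for any pattern. Cdk1, the mitotic kinase, read 161 and 240 CPM against 119 and 171 CPM in the non-dysplastic class and 169 and 124 CPM against 231 and 184 CPM in the dysplastic class. Bub1, a spindle checkpoint kinase, had KO effects of -0.52 ± 0.39 and 0.65 ± 0.39, Cenpa, the centromeric histone, -0.21 ± 0.26 and 0.65 ± 0.26, and the replication factor Gins2 -0.19 ± 0.19 and 0.43 ± 0.19. Tipin, a fork protection protein, had a difference of 0.81 ± 0.45.

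These genes moved together from line to line more than with genotype. The mean log2(CPM + 1) over the G2/M list was 6.40 and 7.18 in lines 300 and 1269, 5.92 and 6.92 in lines 650 and 1270, 6.59 and 6.20 in lines 565 and 752, and 6.73 and 6.67 in lines 794 and 801. All 32 G2/M genes were higher in line 1269 than in line 300 and higher in line 1270 than in line 650. By the list mean, KO line 1270 lay between the non-dysplastic WT lines. Lines 300 and 650 were male, each with a library with the length shift, and lines 1269 and 1270 were female, without one. Within the male lines and within the female lines of this class, the KO line had the lower list mean. The part of sex and of the length shift in these values was not tested. The median difference of the G2/M list was 0.07 without line 1269 and 1.22 without line 1270, and that of the S phase list was -0.04 without the libraries numbered 1 and 1.18 without those numbered 2. The count of genes with a positive difference on such a list is thus close to a count of 1 shared movement.

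**Figure D4:**
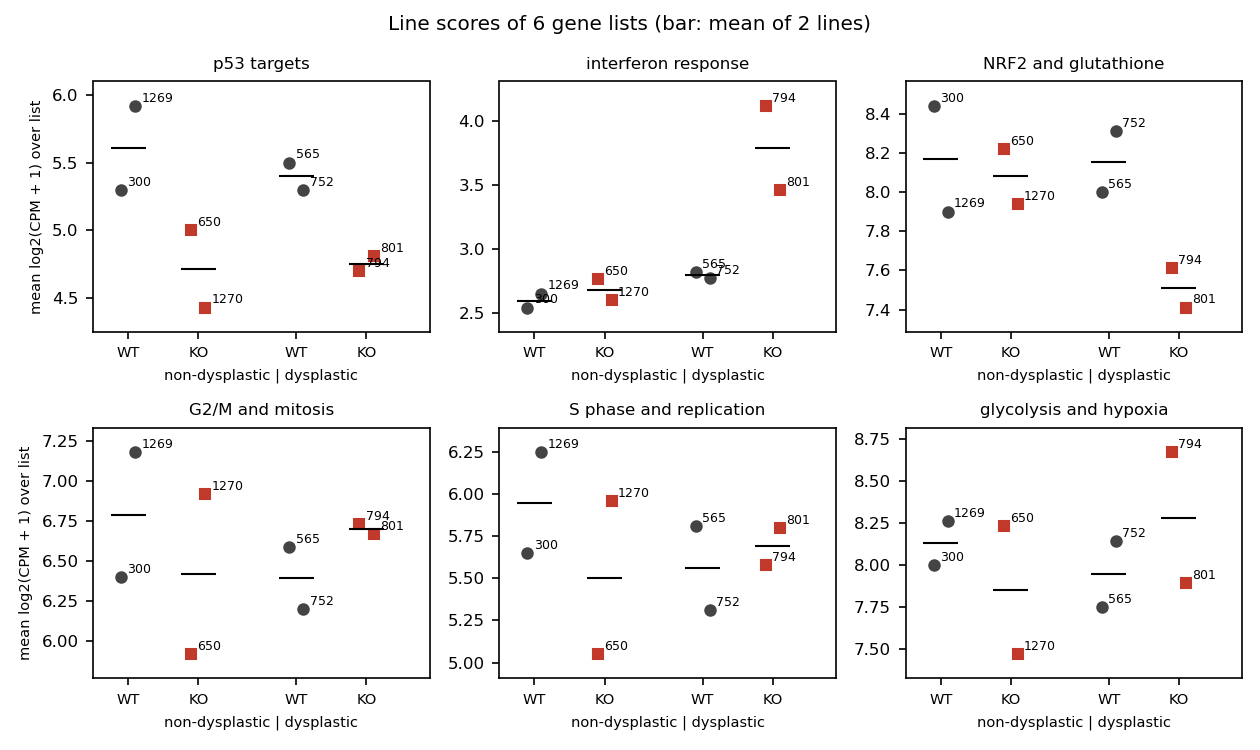
Mean log2(CPM + 1) over each of 6 gene lists in the 8 lines, with grey circles for WT, red squares for KO, a bar at the mean of each pair of lines and an axis that does not start at 0. For interferon genes lines 794 and 801 lie at 4.12 and 3.46, above the 6 others, whereas for G2/M genes lines 1269 and 1270 lie above lines 300 and 650.

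Several other lists had positive differences in nearly all members without a call. The difference was positive in 23 of 23 glycolysis and hypoxia genes (median 0.59), in 19 of 20 immediate early genes (median 0.73) and in 20 of 22 NF-kB and cytokine genes (median 1.08). For glycolysis genes the line mean was highest in line 794, at 8.67, and lowest in line 1270, at 7.47, while line 801, at 7.89, lay between dysplastic WT lines 565 and 752, at 7.75 and 8.14. Line 794 lay above both WT lines in 22 of the 23 genes and line 801 in 4. Line 1270, the ex vivo KO, lay below both non-dysplastic WT lines in 20 of the 23 glycolysis, 13 of the 20 immediate early and 18 of the 22 cytokine genes, and line 650 in 2, 9 and 3. Among gastric cell-type lists the medians of the difference ran from -1.18 over 10 endocrine genes to 0.60 over 9 tuft cell genes. Surface mucous pit cell genes were at 0.07, mucous neck and metaplasia genes at 0.37, chief cell genes at -0.39 and parietal cell genes at 0.01. The lists of cell-cycle inhibitors, mesenchymal transition, Wnt, YAP, Notch, amino acid and unfolded protein response, DNA repair, sterol synthesis, keratins and intestinal metaplasia had medians between -0.09 and 0.41. Over 8 markers of the squamous forestomach the median was 1.39, and 10 such markers summed to 74.8 and 135 CPM in non-dysplastic WT, 106 and 39.7 CPM in KO, 146 and 184 CPM in dysplastic WT and 54 and 141 CPM in KO lines. By these sums the KO lines of the dysplastic class lay below the WT lines, line 801 by a small step, and the non-dysplastic lines overlapped.

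How far each pattern depended on single lines was read by leaving out each line in turn. Rescaling aside, lines that do not overlap stay so when a line is left out, so only the fold limits can remove a gene from a pattern. The rule is also easier to meet with 1 line in a combination, so larger counts are in part given by the rule. The alike pattern held 197 to 375 genes, of which 122 to 148 were among the 154. The dysplastic pattern shared 178 to 369 of its 395 genes with those fits, the opposite pattern 9 to 23 of its 23, and the non-dysplastic pattern 56 to 104 of its 118. Without the libraries numbered 1 or 2, the non-dysplastic pattern shared 42 and 47 genes, the dysplastic pattern 208 and 195 and the alike pattern 88 and 77. Cdkn2a, Ccng1, Eda2r and Gdf15 were alike in both classes, and Rsad2 had the dysplastic pattern, in all 8 fits with a line left out. Among the genes of the dysplastic pattern, Ly6e, Thrb, Aldh1a7 and Aldh1a1 lost it only without line 794. Without the 6 libraries with the length shift, the named genes Sox7, Ddc, Ugt1a6a, Dll1, Il18, Ier3, Oas3, Cxcl10 and Nfe2l2 no longer had the dysplastic pattern.

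**Figure D5:**
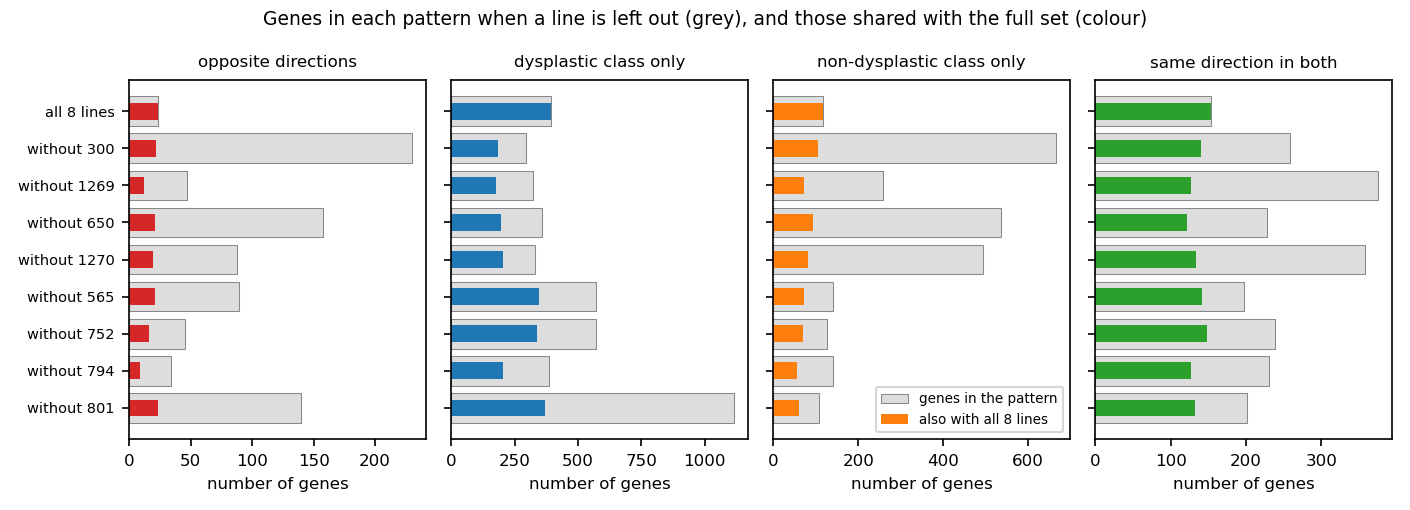
Number of genes in each of the 4 patterns with all 8 lines and with each line left out (grey bars, x axis from 0), and how many of them were also in the pattern with all 8 lines (coloured bars). The opposite pattern grows from 23 to 230 genes without line 300, and the dysplastic pattern from 395 to 1116 without line 801 and shares 203 genes without line 794. A combination with a line left out meets the rule more easily.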

How the data were processed

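Messenger RNA was sequenced in 20 libraries of mouse gastric organoids. The submitters' processing notes name STAR 2.5, bcl2fastq and mouse build mm9. For the gene counter, its annotation and strand, the setting is not given in the sources used here, and overlapping genes and near-identical copies cannot be resolved. The deposited values are raw counts per gene symbol with no normalization. Groups came from the labels for genotype and dysplasia, and libraries with the same number in front of their title were summed per line.

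Tests ran in R 4.3.3. Line sums were filtered with filterByExpr, scaled by TMM and fitted in edgeR 4.0.16 (robust quasi-likelihood, Benjamini-Hochberg, threshold 0.05) with 1 mean per combination, leaving 4 residual degrees of freedom. SE is the size of the log2 change divided by the square root of F. Both edgeR and DESeq2, run on line sums, estimate a gene's spread between lines partly from other genes. Their p-values measure that spread and not the spread between libraries of a line. Those of limma-voom, run on the 20 libraries, also draw on the spread between libraries of a line. Its calls therefore rest partly on libraries that are not separate lines. Alternatives used DESeq2 1.42.0, limma 3.58.1 (voom, line correlation 0.22), other scaling and filtering, and lines or libraries left out. The line correlation was 0.45 with a term for the 6 libraries with the length shift and 0.38 with the library number as block. Gene-level limma-voom calls in the text come from the fit at 0.22. Simulated counts with planted changes were run through the edgeR procedure to check the size and direction of its estimates. They held no sex difference or length shift, and so do not bear on the absence of calls here. CPM values are TMM-scaled line sums. Counting precision follows the line totals given above.

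Named genes were Cdkn2a, up to 4 per pattern and direction of the difference with average log2 CPM above 2 and the smallest p, up to 3 per main list by p, and up to 2 pattern members of each other list. Further genes are marked as chosen after their values were seen, as are Shh, Hmox1, Slc7a11, Mir429, Eid3, Pcdhb14, Ddx3y, Xist, Ephx1 and Col6a1. Some genes this rule names, the KO target among them, are not reported here. The comparison and the 32 lists (637 entries, 633 in the table) were chosen with earlier results of these data known. RefSeq matched 22452 symbols and 1367 older ones, and its build GRCm38.p6 differs from that of the counts, so coordinates are given for printed promoters only.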

Additional observations from a re-analysis of the deposited data

Results flagged for a closer look

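Within each combination of genotype and class, 260 sets of library values on the log2(CPM + 1) scale were searched for a library far from the rest, and 6 were found. The limit used flags about 1 in 20 sets of like values by chance. Each set here mixes libraries of 2 lines, and differences between lines can make the limit harder to pass. The 6 of 260 therefore cannot be read against that rate.

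In dysplastic WT libraries, Bst2 read 3.55 in the second library of line 752, below 3.97 to 4.18 in the others, and Rtp4 read 0.52 in the third library of that line, below 1.17 to 1.53. In dysplastic KO libraries, Marcksl1-ps4 read 1.81 in the first library of line 794 against 2.74 to 3.11, and the mean of the S phase list read 5.17 in the second library of line 794 against 5.7 to 5.81. In the non-dysplastic class, Ugt1a6a read 4.48 in the second library of WT line 1269 against 5.61 to 5.75, and Gsta1 read 5.91 in the second library of KO line 1270 against 7.24 to 7.50. Of these libraries, the third of line 752 is among the 6 with the length shift, and the others are not.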

How the results depend on the processing

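The number of genes called for the difference between classes was 0 in each of the 18 alternatives run for it. The KO effect in dysplastic lines was called in 80 genes by DESeq2, 101 by limma-voom over correlated libraries of a line, 37 with a term for the 6 libraries with the length shift and 38 with the library number as replicate block, and in non-dysplastic lines in 0, 5, 2 and 1. With a line or library number left out, calls ran from 0 to 3 in dysplastic lines, the 3 being without line 801.

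Counts of genes by pattern are given in the order opposite, dysplastic only, non-dysplastic only and alike. They were 87, 667, 311 and 293 with no filter on low counts, 90, 677, 309 and 299 in DESeq2, run without that filter, and 67, 846, 327 and 251 with a log2 fold of at least 0.58. Requiring at most 0.25 in the other class left 206 and 63 genes of the single-class patterns. The opposite pattern held 14 genes in limma-voom, 15 with the library term, 15 with the replicate block and 39 without the 6 libraries, and the alike pattern 99 with the library term and 101 with the replicate block. Over the fits that leave out a line or a library number, the ranges were 13 to 230, 283 to 1116, 108 to 665 and 126 to 375. Correlations of the deviations of 52 same-numbered pairs in different groups ran from -0.66 to 0.73, with a median of 0.1, and 26 were over 0.1. The deviations were taken from the mean of each combination and so hold differences between lines. They therefore cannot decide whether library numbers pair the samples. All libraries numbered 3 were among the 6 with the length shift, as were those numbered 2 of lines 300 and 650.

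Of 59 named genes 57 kept the direction of their difference in every alternative. Apart from Cdkn2a, these genes were chosen by the smallest p of that same difference or after their values were seen. The alternatives also refit the same libraries or part of them, so a kept direction is no independent support. The exceptions, Ccng1 and Eda2r, both chosen after their values were seen, had differences near zero or unlike KO lines. Ccng1 was at 0.19 without the 6 libraries and ran from -0.81 to 0.90 over the fits that leave out a line or library number. Eda2r was at 0.64, 0.69 and 0.81 in limma-voom and 0.06 without the 6 libraries, and ran from -3.57 to 5.14. The cause was not tested. Genes near 1 CPM rest on few reads per line, and with 2 lines per combination a difference must be far larger than the spread within pairs to be called.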
